A study of Mus musculus with 10 samples.

Results

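The axon guidance receptors and ligands described here are 69 protein-coding genes of the 48709 genes counted. They were taken by symbol from GENCODE M21. They comprise the semaphorins of classes 3 to 7, the plexins, neuropilins Nrp1 and Nrp2, the Eph receptors, the ephrins, every symbol that begins with Unc5, Slit1 to Slit3, Robo1 to Robo3, Ntn1, Ntn4, Dcc and Neo1. The spelling rule also took in Unc50 and Unc5cl, which are not netrin receptors, and these are counted apart from the families. Polyadenylated RNA was sequenced from mouse hippocampal neurons grown as primary cultures for 10 days in vitro. The 4 control libraries came from cultures given DMSO, the solvent, for 6 h, and the other 6 from cultures given tunicamycin at 2 ug/mL, also for 6 h. Strain, age and sex of the donor animals were not stated in the labels, nor was it stated whether libraries of a group are separate cultures. Adjusted p-values therefore describe the spread between these libraries, part of which may be technical.

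Guidance molecules steer growing axons by attracting or repelling the growth cone, and many are kept in mature hippocampal neurons, where they shape dendrites and synapses. Semaphorins signal through plexins, and the secreted class 3 semaphorins mostly need a neuropilin as co-receptor. Ephrins are held to the cell surface and bind Eph receptor tyrosine kinases, netrins bind Dcc, neogenin and the Unc5 receptors, and Slits bind Robo receptors. All of them enter the secretory pathway, and tunicamycin blocks the N-linked glycosylation that takes place there.

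Depth was between 2.11e+07 and 2.92e+07 counts per library. Hspa5, a chaperone of the endoplasmic reticulum that marks the response to tunicamycin, was at 574 to 677 counts scaled to 1e6 per library (CPM) in the DMSO libraries and at 2970 to 3370 CPM in the tunicamycin libraries. DMSO replicate 1 and tunicamycin replicate 1 stood somewhat apart from the rest. Chi-square per degree of freedom was 5.55 to 10.5 between DMSO replicate 1 and the other DMSO libraries, against 3.25 to 4.13 among those others. For tunicamycin replicate 1 it was 3.48 to 7.47, against 2.18 to 3.599 among the other 5 libraries.

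More guidance genes fell than rose with tunicamycin. The expression filter kept 65 of the 69 members, of which 34 fell, 12 rose and 19 did not pass the edgeR test at an adjusted p under 0.05. Of all 15660 genes tested 64.3% were called, 32.5% lower and 31.8% higher. The call rate of the members, 70.8%, was thus close to that of all genes, while the calls were mostly in the lower direction. The median log2 fold change of the tested members was -0.16, beside -0.018 over all genes tested. Without DMSO replicate 1, 39 fell and 12 rose, and with replicate 1 of both groups left out 39 fell and 11 rose. Under upper-quartile scaling, which moved the median of all genes by -0.115 on the log2 scale, 42 members fell and 6 rose, beside 44.3% of all genes lower and 23.2% higher. The libraries of both groups did not overlap in CPM for 39 of the 65 members, or 28 lower and 11 higher, against 50.9% of all genes tested. Of the members 13 were called with a change of 1.5-fold or more, against 17.1% of all genes. The 4 members under the filter were Epha1, Plxnb3, Sema3g and Unc5cl, of which none exceeded 0.635 CPM in any library.

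**Figure D1:**
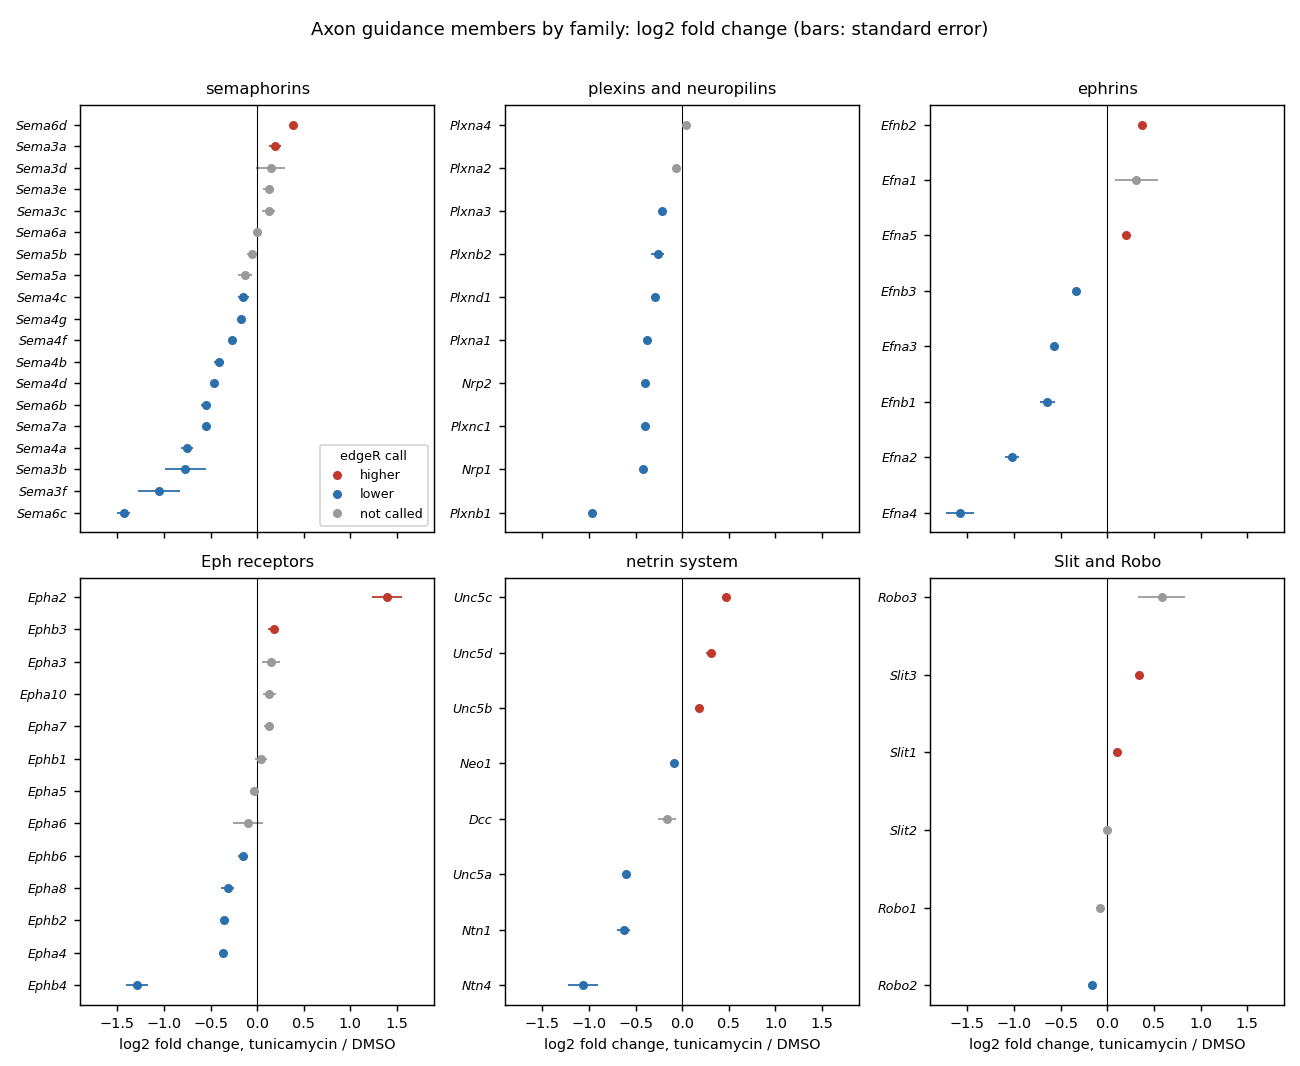
Log2 fold change of each tested member (x axis, tunicamycin over DMSO, edgeR) with its standard error, 1 panel per family and 1 row per gene; colours give the edgeR call at an adjusted p under 0.05. The 10 plexins and neuropilins hold 8 falls and no rise (9 falls and no rise under upper-quartile scaling), while the ephrins run from -1.58 (Efna4) to 0.37 (Efnb2).

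Semaphorins, which act as ligands, mostly fell. Of 20 genes 19 were tested, of which 11 fell and 2 rose (median change -0.17, log2). Under upper-quartile scaling 14 fell and 1 rose. Counts of this and the other families are to be read beside all genes tested. Of these 32.5% fell and 31.8% rose, and under upper-quartile scaling 44.3% fell and 23.2% rose. The class 4 semaphorins, transmembrane ligands of the B plexins among others, were lower in 6 of 6 cases (Sema4a to Sema4d, Sema4f and Sema4g), with log2 fold changes from -0.75 to -0.15. The smallest of these, that of Sema4c (-0.15 ± 0.06, SE), no longer passed without DMSO replicate 1 (-0.13), DMSO replicate 4 (-0.13) or tunicamycin replicates 2 (-0.13), 3 (-0.14) or 5 (-0.12). It also did not pass in DESeq2 (-0.14), and 7.27% of its exonic bases overlap another gene.

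Sema6c, a transmembrane semaphorin (ENSMUSG00000038777, chromosome 3, 95160457 to 95174024, GRCm38), had the largest fall of the family. It was at 22.8, 22.5, 22.6 and 21.8 CPM in the DMSO libraries and at 6.96 to 9.41 CPM (median 8.44) in the 6 tunicamycin libraries. Every tunicamycin library thus lay far below every DMSO library, and the log2 fold change was -1.43 ± 0.07 (SE; adjusted p = 3.28e-14). Sema4a went from 23.7, 21.6, 25.6 and 23.5 CPM to between 12.3 and 15.1 CPM (median 14.4), a log2 fold change of -0.75 ± 0.06. Sema7a, a semaphorin held by a lipid anchor that signals through Plxnc1 and integrins, was at 67.2, 66.8, 67.9 and 65.3 CPM with DMSO and at 40.8 to 50.2 CPM (median 46.2) with tunicamycin (log2 -0.55 ± 0.05). Sema6b, the semaphorin with the highest level per kilobase of exon with DMSO, was at 103, 95.6, 105 and 96.7 CPM and fell to between 59.0 and 77.0 CPM (median 70.0; log2 -0.55 ± 0.06). None of these 4 genes had overlapping groups.

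Class 6 was split. Sema6d, whose receptor is Plxna1, averaged 115 ± 7.32 CPM (SD, n = 4) with DMSO and rose to 152 ± 4.05 CPM (SD, n = 6), a log2 fold change of 0.39 ± 0.04 with no overlap. It went against Sema6b and Sema6c, while Sema6a did not pass the test (0.0031 ± 0.04). The value of Sema6a was -0.11 under upper-quartile scaling, where it passed as lower.

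Among the secreted class 3 semaphorins 1 rose and 2 fell of 6 tested. Sema3a, the classical repellent of hippocampal and cortical axons, rose slightly, from 13.8 ± 1.604 to 15.9 ± 0.698 CPM (log2 0.19 ± 0.07), with overlapping groups. It did not pass without DMSO replicate 1 (0.15) or DMSO replicate 3 (0.15), nor under upper-quartile scaling (0.077). Sema3c (0.12 ± 0.07), Sema3d (0.14 ± 0.16) and Sema3e (0.12 ± 0.06) did not pass. Sema3c passed without DMSO replicate 1 (0.17), and Sema3e without DMSO replicate 2 (0.17), tunicamycin replicate 3 (0.14) or tunicamycin replicate 5 (0.15). Sema3f, a ligand of Nrp2, fell from 4.21, 3.66, 2.21 and 2.36 CPM to between 0.881 and 2.18 CPM (median 1.54; log2 -1.06 ± 0.23). Its libraries did not overlap, but the DMSO libraries differed widely. Lane numbers were read from the names under which the counts were deposited, as the labels give no lane. Each lane alone held 1 or 2 libraries of each group, with no test. Taken by sequencing lane, lanes 1, 2 and 3 gave -1.95, -0.31 and -0.40. Sema3b, at 1.37 ± 0.485 CPM with DMSO, fell by 0.77 ± 0.22 on the log2 scale, and in lanes 1, 2 and 3 alone the values were -1.40, -0.45 and 0.24. The class 5 genes Sema5a (-0.13 ± 0.08) and Sema5b (-0.06 ± 0.05) did not pass. Sema5a did pass without DMSO replicate 1 (-0.20) or tunicamycin replicate 1 (-0.17), and both passed as lower under upper-quartile scaling (-0.25 and -0.17).

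Promoters were searched, as a description without a test, for sites of known transcription factors. RefSeq promoters (GRCm38.p6) were matched for 59 of the 69 members, as 75 windows of 250 bases, each before a RefSeq start site. Both strands were searched for TGATGNAA, the site of ATF4 with C/EBP factors, and for TGACGTGG, the core of the XBP1 element. The endoplasmic reticulum stress element (ERSE) and TGANTCA were searched as well. TGANTCA, with any base in the middle, was taken as a loose form of the AP-1 site. The first 3 had no match in any of the 75 windows, where 3.45%, 0.563% and 0.113% of all 32851 promoters hold them. At shares this low few or no matches would be found in any 75 promoters, so nothing is concluded from their absence. TGANTCA, which reads the same on both strands, was found in 3 windows (4%), against 6.75% of all promoters. The 3 windows belong to Sema4c, Sema4d and Sema6b, all lower with tunicamycin, as were 11 of the 19 semaphorins tested. They are shown on the gene's strand, 5′ to 3′, with the match in capitals and up to 30 bases on each side. The match begins 22, 239 and 48 bases before the start site of its RefSeq promoter. The windows are at chr1:36558382-36558433, chr13:51749013-51749060 and chr17:56133864-56133930, each on the minus strand. On that strand the annotated genes of Sema4d and Sema6b begin at 51793747 and 56140343. Their windows thus lie inside the genes, before an internal start whose use in these cultures was not tested.
Sema4c: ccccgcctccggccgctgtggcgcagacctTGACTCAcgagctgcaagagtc
Sema4d: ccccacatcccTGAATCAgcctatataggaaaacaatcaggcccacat
Sema6b: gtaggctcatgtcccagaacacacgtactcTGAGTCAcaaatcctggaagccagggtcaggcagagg
A match is a stretch of letters and was not tested for binding.

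The receptors of the semaphorins, plexins and neuropilins, had no rise. Of 11 genes 10 were tested and 8 fell (median change -0.34, log2). Upper-quartile scaling gave a split in which 9 fell and none rose. Plxnb1, the receptor of Sema4d (ENSMUSG00000053646, chromosome 9, 109095389 to 109119917, GRCm38), changed most. It was at 86.3, 91.2, 88.9 and 95.5 CPM with DMSO and at 44.3 to 50.5 CPM (median 46.2) with tunicamycin, a log2 fold change of -0.97 ± 0.04 (adjusted p = 6.92e-15). The value was close in each lane alone, at -0.94, -0.96 and -0.97 in lanes 1, 2 and 3. Its ligand Sema4d fell less, from 49.4 ± 1.53 to 35.9 ± 1.29 CPM (log2 -0.47 ± 0.04).

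Both neuropilins fell by similar amounts. Nrp1, the co-receptor of Sema3a and of vascular endothelial growth factor, was at 283, 314, 310 and 310 CPM with DMSO and at 220 to 245 CPM (median 229) with tunicamycin (log2 -0.42 ± 0.04). Nrp2, the co-receptor of Sema3f and the member of this family with the highest level per kilobase, was at 492, 491, 479 and 445 CPM and fell to between 338 and 389 CPM (median 364; log2 -0.40 ± 0.04). Plxnc1, the receptor of Sema7a, was at 90.3, 94.5, 88.6 and 86.2 CPM and fell to between 66.1 and 71.5 CPM (median 67.8; log2 -0.40 ± 0.04). In each of the 3 genes all tunicamycin libraries lay below all DMSO libraries. The class A plexins, which pair with neuropilins or bind class 6 semaphorins directly, differed among themselves. Plxna1 fell from 318 ± 13.4 to 245 ± 10.6 CPM (log2 -0.38 ± 0.04), with 10.7% of its exonic bases in a gene on the other strand, Gm26811, that was at 0.904 CPM with DMSO. Plxna3 fell less (-0.21 ± 0.03). Plxna2 (-0.07 ± 0.03) and Plxna4 (0.04 ± 0.04) did not pass, but Plxna2 passed without DMSO replicate 1 (-0.10) and under upper-quartile scaling (-0.18), and Plxna4 was at -0.070 there. Plxnd1 (-0.29 ± 0.04), a receptor of Sema3e, and Plxnb2 (-0.26 ± 0.07) fell too, Plxnb2 with overlapping groups and with -0.46, -0.07 and -0.05 in lanes 1, 2 and 3 alone.

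**Figure D2:**
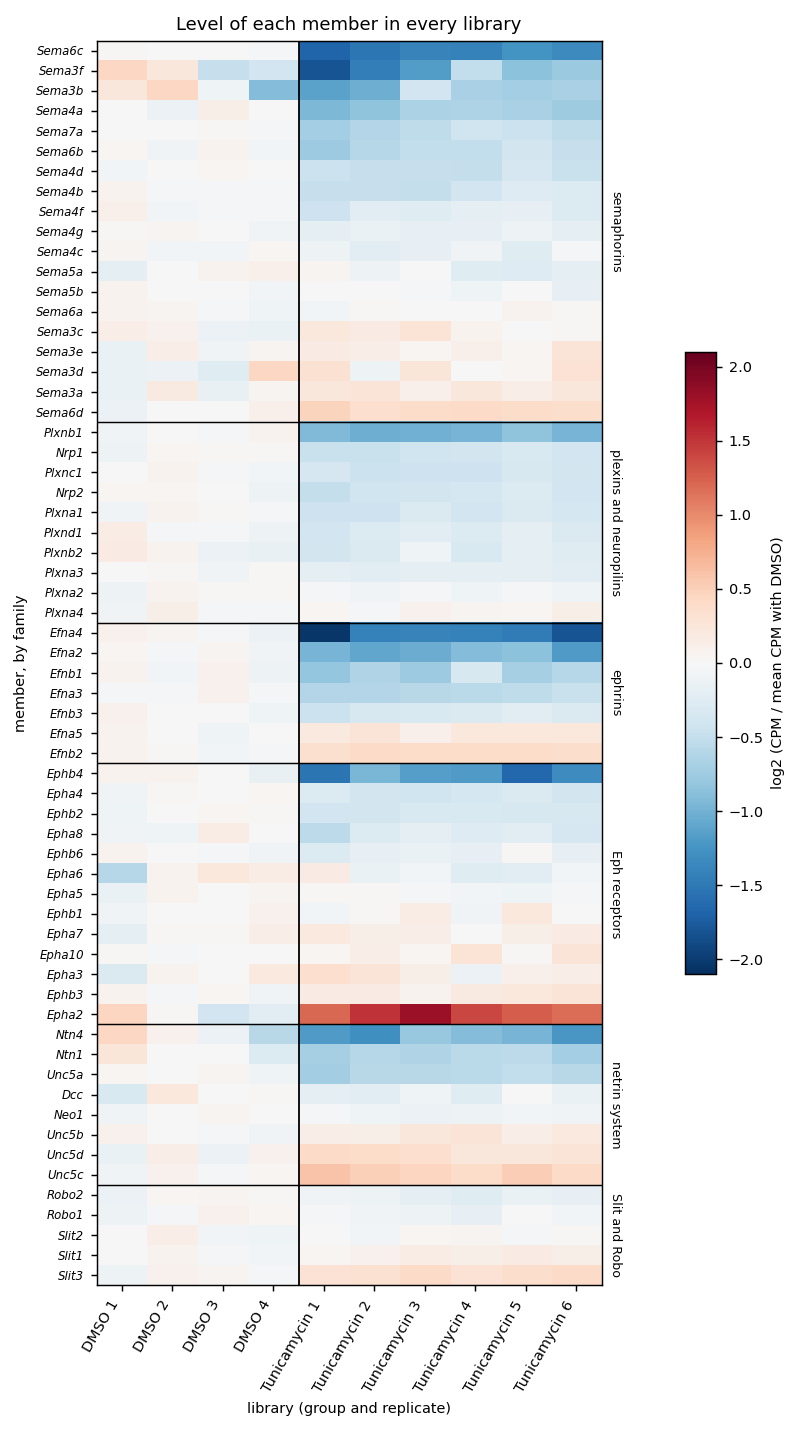
Level of each family member in every library, as log2 of its CPM over its mean CPM with DMSO (colour), with 62 of the 64 tested family members in rows and the 10 libraries in columns. Members under 1 CPM with DMSO (Efna1 and Robo3) are left out; Sema6c, Plxnb1, Efna2, Efna4 and Ephb4 are low in each of the 6 tunicamycin columns, and Epha2 is high in each.

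Ephrins, the surface-bound ligands of Eph receptors, held some of the widest changes, in both directions. All 8 were tested, of which 5 fell and 2 rose (median change -0.45, log2). Under upper-quartile scaling 5 fell and 1 rose. Efna2, an ephrin of the lipid-anchored A class (ENSMUSG00000003070, chromosome 10, 80179482 to 80190010, GRCm38), was at 12.1, 11.5, 12.1 and 11.1 CPM with DMSO. With tunicamycin it was at 5.10 to 6.40 CPM (median 5.80), a log2 fold change of -1.02 ± 0.07 (adjusted p = 5.53e-11). Efna3 went from 47.9, 47.1, 51.4 and 47.7 CPM to between 31.6 and 35.3 CPM (median 32.6; log2 -0.57 ± 0.04). Efna4, at a low level and singled out after its values were seen, as were Epha2, Sema3f, Sema6d, Unc5c, Efnb2 and Efna5, had the largest fall of all members, from 2.41 ± 0.155 to 0.812 ± 0.141 CPM (log2 -1.58 ± 0.15). Efna3 and Efna4 overlap genes on the other strand in 14.1% and 10.5% of their exonic bases, and as the kit did not mark strand their counts are uncertain to that extent. Those genes, Gm15998 and 4731419I09Rik, were at 0.357 and 0.327 CPM with DMSO.

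Among the transmembrane B class, Efnb1 was at 14.1, 12.9, 14.3 and 12.5 CPM with DMSO and at 7.67 to 10.6 CPM (median 8.46) with tunicamycin (log2 -0.64 ± 0.08). Efnb3 had the highest level per kilobase of all members with DMSO, 94.7 ± 4.95 CPM per kilobase of exon. It was at 320, 304, 300.2 and 282 CPM with DMSO and at 221 to 256 CPM (median 244) with tunicamycin (log2 -0.33 ± 0.04). Both fell with no overlap. Efnb2, which signals to EphB receptors and is also an arterial marker, rose from 108 ± 4.49 to 141 ± 2.24 CPM (log2 0.37 ± 0.03, adjusted p = 1.03e-09), also with no overlap. Efna5, a repellent ligand of forebrain maps, rose from 22.6 ± 1.02 to 26.2 ± 0.940 CPM (log2 0.20 ± 0.05) and did not pass under upper-quartile scaling (0.088). Efna1 did not pass (0.31 ± 0.23, at 0.586 CPM with DMSO). Opposite directions were thus found within both ephrin classes.

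The Eph receptors were called in both directions. Of 14 genes 13 were tested, of which 5 fell and 2 rose (median change -0.03, log2). Under upper-quartile scaling 6 fell and 1 rose. Their call rate of 53.8% was near the 64.3% of all genes, and without DMSO replicate 1 7 fell and 2 rose. Ephb4, known as the venous partner of Efnb2 (ENSMUSG00000029710, chromosome 5, 137350109 to 137378669, GRCm38), had the largest fall. It was at 5.98, 5.99, 5.77 and 5.12 CPM with DMSO and at 1.83 to 2.95 CPM (median 2.40) with tunicamycin, a log2 fold change of -1.29 ± 0.11 (adjusted p = 1.95e-09). Epha2, a receptor best known from epithelia, averaged 1.64 ± 0.443 CPM with DMSO and rose to 4.37 ± 0.767 CPM, on the log2 scale by 1.39 ± 0.16 (adjusted p = 1.70e-07), the largest rise of all members. Its lowest tunicamycin library was at 3.69 CPM and its highest DMSO library at 2.25 CPM, so the groups did not overlap at this low level.

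Changes of Epha4 and Ephb2 were smaller. Epha4, the Eph receptor with the highest level per kilobase and a regulator of dendritic spines, was at 269, 288, 283 and 290 CPM with DMSO and at 212 to 233 CPM (median 218) with tunicamycin (log2 -0.36 ± 0.03). Ephb2, which clusters NMDA receptors at synapses, was at 94.1, 100.05, 103 and 102 CPM and fell to between 75.7 and 79.9 CPM (median 79.1; log2 -0.36 ± 0.03). Both were separated between the groups. Epha8 (-0.31 ± 0.07) and the kinase-inactive Ephb6 (-0.16 ± 0.05) fell as well. Ephb6 overlapped between the groups and was at 0.02 in lane 3 alone. Ephb3 rose slightly (0.18 ± 0.06), but did not pass under upper-quartile scaling (0.062) or in replicate numbers 1 to 4 of both groups alone (0.14).

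Epha3, Epha5, Epha6, Epha7, Epha10 and Ephb1 did not pass, with log2 fold changes from -0.10 ± 0.16 (Epha6) to 0.15 ± 0.10 (Epha3). Epha6 was at 25.9 CPM in DMSO replicate 1 and at 41.0 to 45.6 CPM in the other DMSO libraries. Without that library Epha6 (-0.25) and Epha5 (-0.079) passed as lower. Epha7 passed as higher without DMSO replicate 4 (0.18) or tunicamycin replicate 4 (0.15), and Epha3 without DMSO replicate 4 (0.23). Under upper-quartile scaling Epha5 passed as lower (-0.15) and Ephb1 went from 0.04 to -0.073, not called.

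In the netrin system the ligands fell and the receptors were split. Of 8 genes 4 fell and 3 rose (median change -0.12, log2), and 5 fell and 2 rose under upper-quartile scaling. Ntn1, the chemoattractant of commissural axons, was at 25.1, 20.96, 21.1 and 17.3 CPM with DMSO and at 12.9 to 14.5 CPM (median 13.8) with tunicamycin (log2 -0.63 ± 0.07). Ntn4, a netrin found in basement membranes, was at 11.4, 9.02, 7.75 and 5.67 CPM and fell to between 3.47 and 4.89 CPM (median 3.997; log2 -1.07 ± 0.16). Neither gene overlapped between the groups, but their DMSO libraries varied by 15.1% (Ntn1) and 28.2% (Ntn4) of the mean, beside a median of 5.28% over the tested members. In lanes 1, 2 and 3 alone Ntn4 was at -1.50, -0.72 and -0.50 and Ntn1 at -0.76, -0.58 and -0.32. Summed fibroblast and mural markers were at 221, 226, 185 and 127 CPM in the same order of DMSO libraries and at 99.9 to 162 CPM in the tunicamycin libraries. Of these 8 markers 3 fell, none rose and none was at 0, and their part in the values of Ntn4, Ntn1, Sema3b, Sema3f and Plxnb2 was not tested.

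The Unc5 receptors, which turn the netrin response to repulsion, moved in opposite directions. Unc5a (ENSMUSG00000025876, chromosome 13, 54949411 to 55006018, GRCm38) was at 99.2, 95.1, 100.2 and 90.1 CPM with DMSO and at 58.0 to 67.6 CPM (median 64.4) with tunicamycin, a log2 fold change of -0.60 ± 0.04 (adjusted p = 1.37e-11). Unc5c rose from 73.3 ± 3.87 to 102 ± 5.67 CPM (log2 0.47 ± 0.04, adjusted p = 7.06e-09), and Unc5d from 65.3 ± 6.53 to 81.4 ± 3.97 CPM (0.31 ± 0.06). Unc5b rose from 55.2 ± 2.73 to 62.7 ± 2.59 CPM (0.18 ± 0.04), and did not pass under upper-quartile scaling (0.061). In all 4 genes the groups were separated. Neo1, the member of this system with the highest level per kilobase, was at 604, 628, 663 and 640.0 CPM with DMSO and at 584 to 619 CPM (median 601) with tunicamycin (log2 -0.09 ± 0.03). It did not pass without DMSO replicate 3 (-0.058), DMSO replicate 4 (-0.074) or tunicamycin replicate 3 (-0.079). Dcc did not pass (-0.16 ± 0.10). DMSO replicate 1 had 60.4 CPM of Dcc and the other DMSO libraries 75.8 to 87.7 CPM, and without it Dcc passed at -0.26, as it did under upper-quartile scaling (-0.28). Unc50, matched by spelling only, was at 0.12 ± 0.04 and did not pass without DMSO replicate 2 (0.083) or under upper-quartile scaling (0.0045).

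Changes of the Slit and Robo genes were small. All 6 were tested, of which 2 rose and 1 fell (median change 0.05, log2). Upper-quartile scaling gave a split in which 1 rose and 3 fell. Slit3 was at 101, 116, 113 and 106 CPM with DMSO and at 134 to 143 CPM (median 138) with tunicamycin, with no overlap (log2 0.34 ± 0.04, adjusted p = 1.68e-07). Slit1, the Slit with the highest level per kilobase, was at 195, 205, 190 and 187 CPM with DMSO and at 199 to 220 CPM (median 212) with tunicamycin. Its groups overlapped and its log2 fold change of 0.11 ± 0.03 became -0.0065 under upper-quartile scaling. Slit2 stayed near 0 (-0.0027 ± 0.04), and was at -0.12 and called under upper-quartile scaling. With DMSO Slit2 had a higher mean than Slit1 (284 against 194 CPM). Its annotated exons cover 25433 bases, against 5921 for Slit1, and the order of these 2 Slits per kilobase depends on those lengths. Of their receptors, Robo2 was at 55.8, 62.5, 62.9 and 61.5 CPM with DMSO and at 50.7 to 58.0 CPM (median 54.2) with tunicamycin (log2 -0.16 ± 0.04), with overlapping groups. Robo1 did not pass (-0.08 ± 0.04), but passed without DMSO replicate 1 (-0.12) and under upper-quartile scaling (-0.19). Robo3, a receptor of commissural axons, was at 0.377 CPM with DMSO and did not pass (0.58 ± 0.25), although it did without DMSO replicate 2 (0.73) or tunicamycin replicate 3 (0.63).

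Read by role, 18 of 32 tested ligands fell and 6 rose, and 16 of 32 tested receptors fell and 5 rose, with medians of -0.22 and -0.13. Under upper-quartile scaling 22 ligands fell and 3 rose, and 20 receptors fell and 3 rose. Of all genes tested 32.5% fell and 31.8% rose, and under that scaling 44.3% fell and 23.2% rose. Among the ligands, 10 of 15 transmembrane ones fell and 2 rose, 4 of 6 with a lipid anchor fell and 1 rose, and 4 of 11 secreted ones fell and 3 rose. The respective counts of these 3 ligand classes under upper-quartile scaling were 13 and 2, 4 and 0, and 5 and 1. Partners moved together in some pairs and apart in others. Sema4d and Plxnb1 both fell, as did Sema7a and Plxnc1, and Sema3f and Nrp2. Sema6d rose while Plxna1 fell, and Efnb2 rose while Ephb4 fell. The partner taken matters: of the other EphB genes, Ephb2 and Ephb6 fell, Ephb3 rose and Ephb1 did not pass. Of the other class A plexins, Plxna3 fell, and Plxna2 and Plxna4 did not pass. The pairs named were not fixed before the values were seen. Whether such pairs differ from other pairs of genes was not tested.

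Counts of 2 members can be set against each other within a library, which removes the scaling between libraries. Of 9 such ratios 5 are given. They were chosen after the values were seen, in most cases to pair a gene that rose with one that fell, and are descriptions. Unc5c had 0.699 to 0.836 counts per count of Unc5a in the DMSO libraries and 1.48 to 1.91 in the tunicamycin libraries. These are counts not corrected for length. Per kilobase of exon Unc5a was above Unc5c in both groups, at 23.1 against 3.83 CPM per kilobase with DMSO and at 15.3 against 5.33 with tunicamycin. That order depends on the annotated exon lengths, 4168 bases for Unc5a and 19135 for Unc5c. Efnb2 had 0.347 to 0.375 counts per count of Efnb3 with DMSO and 0.553 to 0.620 with tunicamycin. Sema6d had 4.65 to 5.67 counts per count of Sema6c with DMSO and 16.0 to 22.8 with tunicamycin. For Efnb2 against its receptor Ephb4 the ranges were 18.0 to 20.6 and 48.6 to 77.4. These 4 ratios did not overlap between the groups. The ratio of Sema7a to its receptor Plxnc1, both of which fell, did overlap, at 0.708 to 0.766 with DMSO and 0.580 to 0.753 with tunicamycin.

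**Figure D3:**
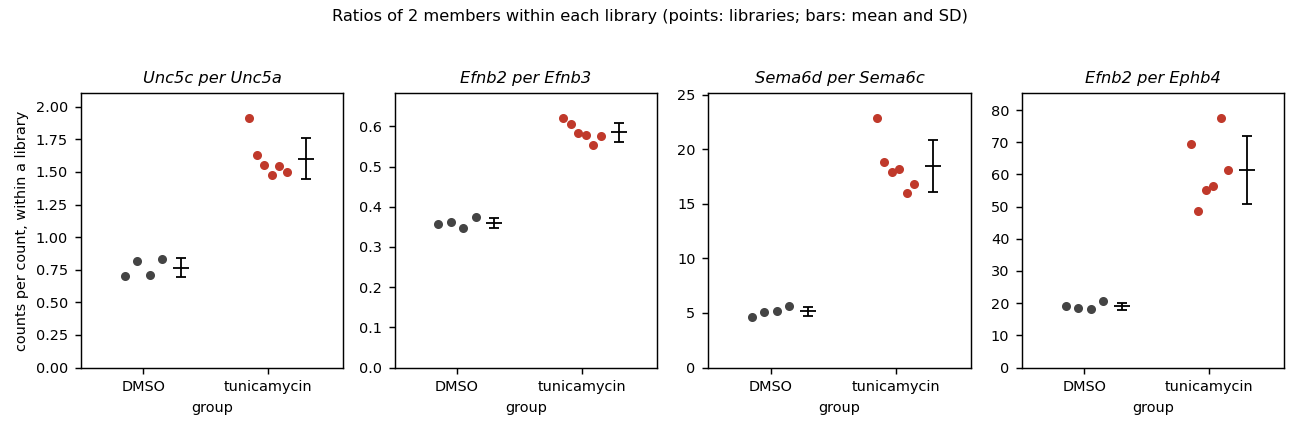
Counts of 1 member per count of another within each library (y axis, from 0), by group, for 4 pairs; points are libraries and bars the mean and SD. The tunicamycin libraries lie above the DMSO libraries in each pair, at 1.603 ± 0.160 against 0.765 ± 0.0718 for Unc5c per Unc5a.

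Levels per kilobase of exon allow a rough comparison of members with each other. The length used is the union of all annotated exons, and which transcripts these cultures make was not tested. With DMSO the highest were Efnb3 (94.7 CPM per kilobase), Neo1 (72.7), Nrp2 (40.3), Plxna1 (35.1), Epha4 (35.1), Slit1 (32.8) and Nrp1 (31.1). Plxna1 and Epha4 were within their SD of 1.48 and 1.18 CPM per kilobase of each other. The order at the top was kept with tunicamycin for Efnb3 (75.8) and Neo1 (68.8), and the third place went to Slit1 (35.6), ahead of Nrp2 (30.7). The changes of at least 2-fold by the fitted values, in Efna2, Efna4, Ephb4, Epha2, Sema3f, Sema6c and Ntn4, were all of members at 5.48 CPM per kilobase or less with DMSO. Plxnb1, at 9.43 CPM per kilobase, fell to 0.512 of its DMSO level.

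**Figure D4:**
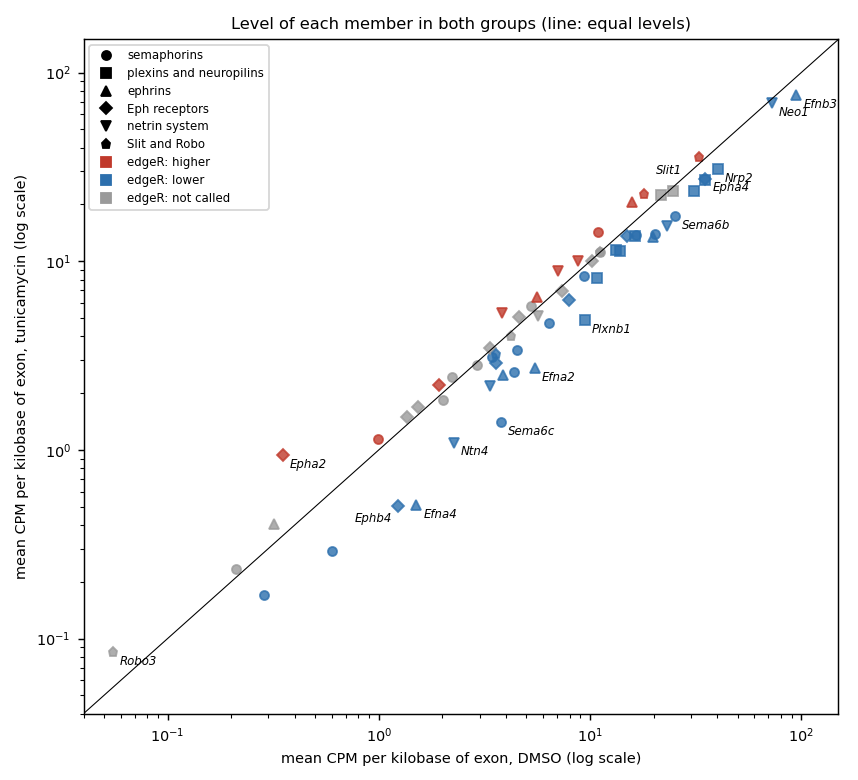
Mean level of each tested family member, in CPM per kilobase of exon, with DMSO (x axis) and tunicamycin (y axis), both on log scales; shapes give the family and colours the edgeR call. Points near the line of equal levels fill the upper right, and the points farthest from it (Epha2, Efna4, Ephb4, Sema6c) are at 3.78 CPM per kilobase or less with DMSO.

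Falls were more frequent among members with short genes, a property that the choice of members did not use. The median gene span of the tested members was 106.5 kb. Of the 32 members with a shorter gene 24 fell (75%) and 5 rose, and of the 33 at or above it 10 fell (30.3%) and 7 rose. Over all protein-coding genes tested and the same boundary, 34.8% of the shorter and 29.1% of the longer fell. Under upper-quartile scaling the members' shares were 75% and 54.5%, and those of all genes 46.6% and 44%. Without DMSO replicate 1, 23 of the shorter (71.9%) and 16 of the longer (48.5%) members fell, beside 32.8% and 30.9% of all genes, and with replicate 1 of both groups left out the members' counts were again 23 and 16. The gap between short and long members thus depended on that library in part. Examples chosen after their values were seen come from several families. Unc5a spans 56.6 kb and fell, while Unc5c and Unc5d span 370 and 573 kb and rose, but Unc5b, at 69.0 kb, rose as well. Efna2, Efna3, Efna4 and Efnb3 span 4.64 to 10.5 kb and fell, while Efna5 spans 277 kb and rose. Sema6b (17.3 kb) and Sema6c (13.6 kb) fell, and Sema6d (578 kb) rose. The 5 members with short genes that rose were Efnb2, Epha2, Ephb3, Unc5b and Unc50, and the 10 with long genes that fell were Epha4, Ephb2, Neo1, Nrp1, Nrp2, Ntn1, Ntn4, Plxnc1, Robo2 and Sema4d. These counts are a description and were not tested.

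**Figure D5:**
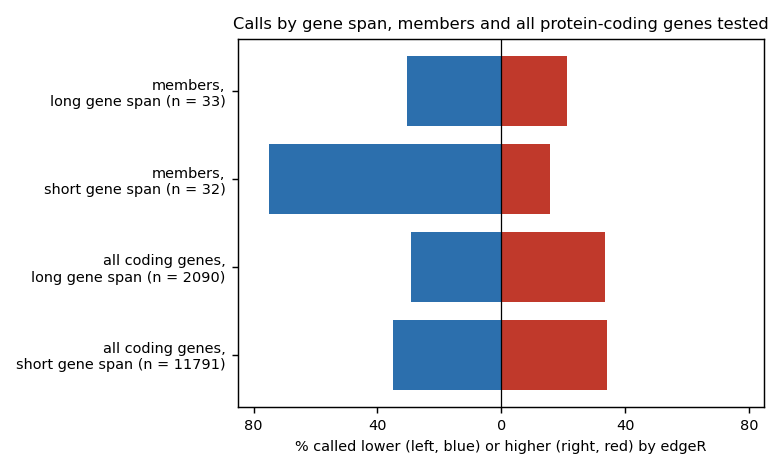
Share of genes called lower (blue, left) and higher (red, right) by edgeR, in percent, for members and for all protein-coding genes tested, split at a gene span of 106.5 kb. Of the short members 75% were lower, against 34.8% of all short coding genes; under upper-quartile scaling these shares are 75% and 46.6%.

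Guidance genes outside these families also fell more often than they rose. Of 44 other ligands, receptors, co-receptors and shedding proteases listed 41 were tested, of which 24 fell and 8 rose (median change -0.17, log2). Of all genes tested 32.5% fell and 31.8% rose. Under upper-quartile scaling 30 of the listed genes fell and 4 rose, beside 44.3% of all genes lower and 23.2% higher. Those with the smallest p were Lingo1, a co-receptor for myelin inhibitors (-0.43 ± 0.04), Draxin, a repellent that binds Dcc (-0.80 ± 0.07), and Wnt5a (-0.54 ± 0.05) among the falls. Among the rises they were Flrt3, a ligand of Unc5 receptors (0.56 ± 0.04), Boc, a Sonic hedgehog co-receptor (0.38 ± 0.04), and Dscam, a netrin receptor (0.21 ± 0.03).

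The proteins that carry guidance signals inside the growth cone were called in both directions. Of 58 cytoplasmic effectors, all tested, 24 rose and 20 fell, with a median of 0.07. Of all genes tested 31.8% rose and 32.5% fell. Under upper-quartile scaling 16 effectors rose and 28 fell (median -0.05), beside 23.2% of all genes higher and 44.3% lower. Dpysl2, the collapsin response mediator downstream of Sema3a, fell from a mean of 377 to 199 CPM (log2 -0.93 ± 0.04). Its relatives Crmp1 (-0.20), Dpysl3 (-0.16), Dpysl4 (-0.15) and Dpysl5 (-0.22) fell too. Chn1, a Rac regulator in the EphA4 pathway (-0.37 ± 0.04), and the actin-severing Cfl1 (-0.24 ± 0.03) were the other falls with the smallest p. The rises with the smallest p were the adaptor Nck1 (0.91 ± 0.06), Trim9, a ubiquitin ligase that binds Dcc (0.41 ± 0.03), and Arhgap39, a Robo-linked GTPase regulator (0.46 ± 0.03).

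Several members are expressed by cells other than neurons, and markers of such cells moved with treatment. In these counts of whole cultures, fewer cells of a type and less RNA per cell cannot be told apart. All 11 astrocyte markers fell, from a sum of 3262 to 3667 CPM in the DMSO libraries to 2232 to 2471 CPM in the tunicamycin libraries. Pan-neuronal markers fell in 10 of 12 cases with none higher, from 8391 to 8858 CPM to 7015 to 7353 CPM. Of 9 tested microglia markers 7 fell (18.4 to 23.3 CPM against 12.6 to 16.5 CPM), of 4 oligodendrocyte precursor markers 3 (145 to 199 against 86.3 to 110 CPM), and all 9 proliferation markers (131 to 164 against 80.8 to 96.6 CPM). Among 4 tested oligodendrocyte markers 1 rose and 1 fell (40.7 to 48.1 against 34.0 to 36.9 CPM). Endothelial markers, of which 1 of 4 tested rose, summed to 35.6 to 75.1 CPM with DMSO and to 52.6 to 79.1 CPM with tunicamycin. Nearly all of that sum was Kdr (means of 50.6 and 58.4 CPM, not called), while Flt1, Cdh5 and Pecam1 were at 0.688, 0.264 and 0.480 CPM with DMSO and Cldn5 did not exceed 0.0475 CPM in any library. Excitatory markers fell in 3 of 5 cases with 1 higher (1166 to 1281 against 1096 to 1120 CPM), and interneuron markers fell in 3 of 6 with 1 higher (512 to 559 against 487 to 531 CPM). No marker of any list was at 0 in all libraries. The part of any of these cells in the members' changes was not tested.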

How the data were processed

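Raw counts per Ensembl gene were deposited for each of the 10 libraries (unit: counts), with 2 tables of the authors' own comparison that hold log2 fold changes, adjusted p-values and a normalised signal per library, which are counts divided by 1 factor per library as deposited. Libraries were made with TruSeq RNA Library Prep Kit v2 and read as single ends, per the labels' protocols. The submitters' processing notes name the mm10 build, DESeq2, Subread 1.5.1 with featureCounts listed beside it, STAR 2.5.2b and FastQC 0.11.5. Not given in the sources used here are their roles, the annotation release and the strand setting. That kit does not mark strand, so reads of overlapping genes on opposite strands cannot be told apart.

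Gene symbols, positions and exonic lengths came from GENCODE M21 (GRCm38), which matched 48349 of 48709 identifiers. Counts were fitted in edgeR 4.0.16 (R 4.3.3, limma 3.58.1) with TMM factors, filterByExpr and a robust two-sided quasi-likelihood F test over all 15660 genes kept. P-values were adjusted by Benjamini and Hochberg over all of them, and calls were made where this fell under 0.05. Standard errors are the absolute log2 fold change divided by the square root of F. CPM values use the total counts of a library, and levels per kilobase use the union of exons. Chi-square values compare counts of 2 libraries over genes. Precision is limited by 4 and 6 libraries and, for low genes, by counting error. The fit was also run on simulated counts in which few genes were changed. As most genes tested were called in the real libraries, that run could not check the scaling.

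Members, families and lists were chosen with earlier results of these data known. For some members of each family, values are given for each DMSO library, with the range and median of the tunicamycin libraries. These are the 3 called members with the largest absolute change at a mean of at least 5 CPM in 1 group. The member with the highest level per kilobase with DMSO was treated likewise. From the lists of other guidance genes and effectors, the 3 called genes with the smallest p in each direction are named, and the Dpysl and Crmp1 relatives were added after their values were seen. Cell type markers were pan-neuronal, astrocyte, microglia, oligodendrocyte precursor, oligodendrocyte, endothelial, fibroblast and mural, proliferation, excitatory neuron and interneuron lists. Alternatives were upper-quartile scaling, DESeq2 1.42.0, 2 other filters, lane as a term, each lane alone, a replicate block and leaving out each library. Protein sequences were not analysed here.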

Additional observations from a re-analysis of the deposited data

Results flagged for a closer look

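In 5 of 130 groups examined, the highest or lowest library lay apart from the rest of its group by Dixon's criterion, which chance alone meets in about 1 in 20 groups. Nrp1 was lowest in DMSO replicate 1, at 282.9 CPM, where the nearest DMSO library was at 309.5 CPM. Sema4b (26.84 CPM, nearest 25.05) and Sema4f (93.74 CPM, nearest 85.32) were highest in the same library. Sema3d was highest in DMSO replicate 4, at 2.448 CPM, with the nearest at 1.664 CPM. Sema4d was highest in tunicamycin replicate 5, at 38.46 CPM, with the nearest at 35.98 CPM. Leaving out each of these libraries changed the call of none of these 5 genes.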

How the results depend on the processing

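Of the 46 members called, 38 kept the call in every alternative with a test, and 44 had 1 sign in all 3 lanes. Upper-quartile scaling moved the number called from 46 to 48 and its split to 6 members higher and a median of -0.271 (log2), and turned Ephb1 (-0.073), Plxna4 (-0.070), Sema6a (-0.11) and Slit1 (-0.0065) below 0. The median of all genes moved by -0.115 under that scaling, and these genes moved down with it. Why the scalings differ was not tested. Leaving out each library gave medians from -0.201 (without DMSO replicate 1) to -0.143, with 44 to 51 members called. Values near 0 changed sign in Sema6a (-0.014 to 0.0232 with a library left out, -0.022 with replicate numbers 1 to 4 only) and in Slit2 (0.0065 in DESeq2, 0.0040 with lane as a term, 0.017 without a filter, -0.023 to 0.043 with a library left out). In lane 3 alone Ephb6 was at 0.019 and Sema3b at 0.24. For each library, the deviation of every gene tested from its group mean was taken on the log CPM scale. These deviations, not the levels themselves, correlated between same-numbered libraries of the 2 groups at -0.217, 0.0086, -0.061 and -0.072 for numbers 1 to 4. Whether a shared number marks paired cultures is not stated in the labels and was not tested. A replicate block over numbers 1 to 4 called 41 members (9 higher, 32 lower), against 45 without it in the same libraries, did not call Ephb3, Neo1, Sema4c, Slit1 and Unc50, and put Sema6a at -0.021 and Slit2 at 0.0016. The fit of numbers 1 to 4 without the block, and the one without replicate 1 of both groups, were chosen after seeing the data. The authors' deposited table lists the 46 called members in the same directions and Dcc as lower (log2 -0.17, adjusted p 0.0320). Counts under 1 CPM (Efna1, Robo3) limit what can be detected.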

Other observations

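Efna1, Efna3 and Efna4 lie within 66.3 kb of each other on chromosome 3 and had log2 fold changes of 0.31 ± 0.23 (SE, not called), -0.57 ± 0.04 and -1.58 ± 0.15 in edgeR. Efna4 had 49 to 68 counts per DMSO library and 14 to 24 counts per tunicamycin library.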
